A study of Mus musculus with 115 samples.

Results

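The genes described here encode the proteins of the cytosolic ribosome. They were taken by name from the count table of single dentate gyrus granule cells: every symbol that starts with Rpl or Rps and goes on with a number, at most 1 letter and at most 1 further digit, and in addition Rplp0, Rplp1, Rplp2 and Rpsa, with symbols of -ps pseudogenes left out. The rule used no measured value and gave 85 of the 22870 genes of the table: 31 of the small subunit, 43 of the large subunit, 3 of the stalk and 8 paralogs, which carry the name of another member with an added l or l1. A gene was called measured when its mean log2(CPM+1) over the kept cells was at least 1, where CPM is the count per 1000000 counts of the cell. This left 82 members among 9088 genes. The other 3 are the paralogs Rpl10l, which had no count in any cell, Rpl39l, which had counts in 1 cell, and Rpl3l, which had counts in 3 cells. In the GENCODE annotation 83 members have a coding sequence, and Rpl6l and Rps4l are listed as processed pseudogenes.

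A ribosome is built from a small subunit, which reads the mRNA, and a large subunit, which forms the peptide bonds. The acidic stalk proteins Rplp0, Rplp1 and Rplp2 stand on the large subunit and recruit the elongation factors. In vertebrates, most mRNAs of ribosomal proteins begin with a C and a run of pyrimidines, the 5′ terminal oligopyrimidine tract, through which mTORC1 and the RNA-binding protein Larp1 set how much of them is translated. In neurons these mRNAs are found in the cell body and in axons and dendrites. Rps6 is a small-subunit protein that is phosphorylated downstream of mTORC1. Its phosphorylated form, which RNA counts do not measure, is widely used as a marker of neuronal activity.

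The cells came from Rbp4-Cre transgenic mice, and every group carried the same pair of viruses. A retroAAV-EGFP in the right ventral hippocampus labelled granule cells that send an axon to that side (EGFP+), and saline or KA (kainic acid, which activates glutamate receptors and provokes seizures) was injected with AAV.cDIO-mCherry, which needs Cre, into the left hippocampus. The cytosol of single granule cells of the left side, with or without mCherry, was drawn into a patch pipette 2 weeks later and sequenced without molecular barcodes after Nextera XT preparation, so that read counts include amplification. Age is not among the labels used here. After saline, 27 EGFP- and 5 EGFP+ cells were kept, and after KA 36 EGFP- and 27 EGFP+ cells, which the design text draws from 3, 3, 3 and 9 mice. No label names the mouse of a cell, so each group counts as 1 sample: no test, p-value or standard error was made, and the SDs are over cells.

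The title numbers of the cells form a first series (M1 to M48, all from KA mice) and a second series (M201 to M272, every saline cell and the remaining KA cells). The 36 KA EGFP- cells split into 21 of the first and 15 of the second series, and the 27 KA EGFP+ cells into 24 and 3. Within the first series, titles 1 to 19 hold 19 EGFP+ cells and no EGFP- cell, and titles 20 to 48 hold 5 EGFP+ and 21 EGFP- cells. In the second series the treatments alternate in blocks of title numbers that hold 1 treatment each, so treatment and block cannot be told apart. The quality labels and the quality-passed count table disagree: 13 of the 95 kept cells are labelled as failed and 12 of the 20 left-out cells as passed. Treatment and EGFP class were used as labelled, and whether those labels carry an error of the same kind was not tested; the 5, 36 and 27 kept cells of 3 groups are the numbers that the design text gives.

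Depth over the 95 kept cells was 1277978 to 56183007 counts with a median of 5221619, and 1469 to 9945 genes had a count. The granule cell markers (12 genes, among them Prox1 and Calb1) held 0.363% of counts in the median saline EGFP- cell, 0.227% in that of saline EGFP+, 0.113% in that of KA EGFP- and 0.137% in that of KA EGFP+. The 16 microglia markers, which a granule cell should lack, had medians of 0.0269%, 2.90%, 0.00855% and 0.0135% and reached 5.41%, 5.00%, 5.29% and 2.54%. At least 0.1% of counts fell on them in 12 of 27, 4 of 5, 6 of 36 and 10 of 27 cells. None of the 16 was at 0 in every cell of a group. These shares move with the ribosomal protein genes in several comparisons, as given below, and their part in those results was not tested.

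The start of a ribosomal protein gene is where the oligopyrimidine tract of its mRNA should lie. The windows below span 15 bases on each side of the RefSeq transcription start (build GRCm38.p6) on the strand of the gene, and capitals mark a C followed by at least 4 bases that are C or T and starting within 5 bases of that start. They belong to genes that the results turn on: small-subunit and stalk genes, genes with the most extreme differences and the paralog with the highest level per length.
Rps6: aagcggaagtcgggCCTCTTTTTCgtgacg
Rps27: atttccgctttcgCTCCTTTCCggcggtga
Rps9: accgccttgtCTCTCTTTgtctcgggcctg
Rplp2: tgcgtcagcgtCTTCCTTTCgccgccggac
Rpl22l1: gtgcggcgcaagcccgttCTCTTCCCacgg
Rps4x: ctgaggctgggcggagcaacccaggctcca
Rplp0: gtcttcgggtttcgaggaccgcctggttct
Rpl4: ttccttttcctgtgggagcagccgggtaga
Rpl5: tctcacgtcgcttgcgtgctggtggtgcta
Rpl9: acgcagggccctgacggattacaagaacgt
The windows are Rps6 at chr4:86857353-86857382 (minus strand), Rps27 at chr3:90213634-90213663 (minus), Rps9 at chr7:3704026-3704055 (plus), Rplp2 at chr7:141447636-141447665 (plus) and Rpl22l1 at chr3:28805493-28805522 (plus). Those without a marked tract are Rps4x at chrX:102189377-102189406 (minus), Rplp0 at chr5:115559452-115559481 (plus), Rpl4 at chr9:64173372-64173401 (plus), Rpl5 at chr5:107900513-107900542 (plus) and Rpl9 at chr5:65391417-65391446 (minus).

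RefSeq windows were matched for 63 of the 85 members. A tract as defined lay within 5 bases of the start in 29 of these 63 genes (46%), beside 21.2% of the 27025 genes with a window. The start base itself was a C followed by at least 4 bases that are C or T in 13 of 63 members (20.6%), beside 3.01% of all genes. This count includes tracts that began upstream of the start base, as in the Rps6 and Rplp2 windows. The absence of a mark in the Rpl4 or Rplp0 window says only that no such tract begins within 5 bases of the RefSeq start. The Rpl4 window holds a C followed by a run of pyrimidines further upstream (ccttttcct), outside the searched bases. In KA EGFP+ minus KA EGFP- cells the median difference was 1.35 for the 29 with it and 1.21 for the 31 measured members with a window and no tract, and in title series 1 the order was the reverse (0.56 and 0.82).

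Levels between genes were compared per kilobase of mRNA. The 82 measured members had a median of 71.9 CPM per kilobase (range 7.84 to 403), with 85.5% of all measured genes below that median, whereas the median gene stood at 19.3 and the 76 measured mitochondrial ribosomal protein genes at 36.7. By group the members' median was 45.1 in saline EGFP-, 78.0 in saline EGFP+, 60.3 in KA EGFP- and 105.1 in KA EGFP+ cells, and that of the mitochondrial ribosomal protein genes 30.0, 23.9, 41.4 and 36.5. The members thus stood above the mitochondrial list in every group, by a ratio that differed between groups.

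The highest mean belonged to Rpl22l1, the paralog of the large-subunit gene Rpl22, with 403 CPM per kilobase. This rests on 1 cell: the saline EGFP+ cell titled M252 held 45% of its summed CPM, and without that cell the mean was 223.9. Rpl41, which encodes the smallest ribosomal protein, had 402 CPM per kilobase, with a median over cells of 311, and Rpl4 had 362, with a median of 303. Among the next were Rpl32 (334 CPM per kilobase), Rps14 (334), Rps9 (308), the stalk gene Rplp1 (286) and Rps15. Without the highest cell of each, Rpl32 and Rps14 had 320.3 and 322, so their order rests on single cells.

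At the other end stood Rpl28 with 22.5 CPM per kilobase, Rps16 with 20.4, Rpl18 with 19, the annotated pseudogene Rpl6l with 9.73 and Rps15a with 7.84. For 2 of these the length matters: the mRNA chosen for Rps15a has 5179 bases of which 390 are coding, and that for Rpl18 has 2989 with 564 coding. Per coding kilobase Rps15a ranked 57 of the 80 measured members with a coding sequence. Most members also have near-identical copies elsewhere in the genome: 77 of the 83 with a coding sequence have at least 1 copy (95% identity or more over at least 80% of the coding sequence), with a median of 5 and up to 57 for Rpl21, and 566 of the 593 copies are pseudogenes. How the authors' counting treated reads that fit several copies is not given in the sources used here, so levels of such members are uncertain. The exons of 38 members also overlap another gene, and Nextera XT libraries do not mark the strand.

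**Figure D1:**
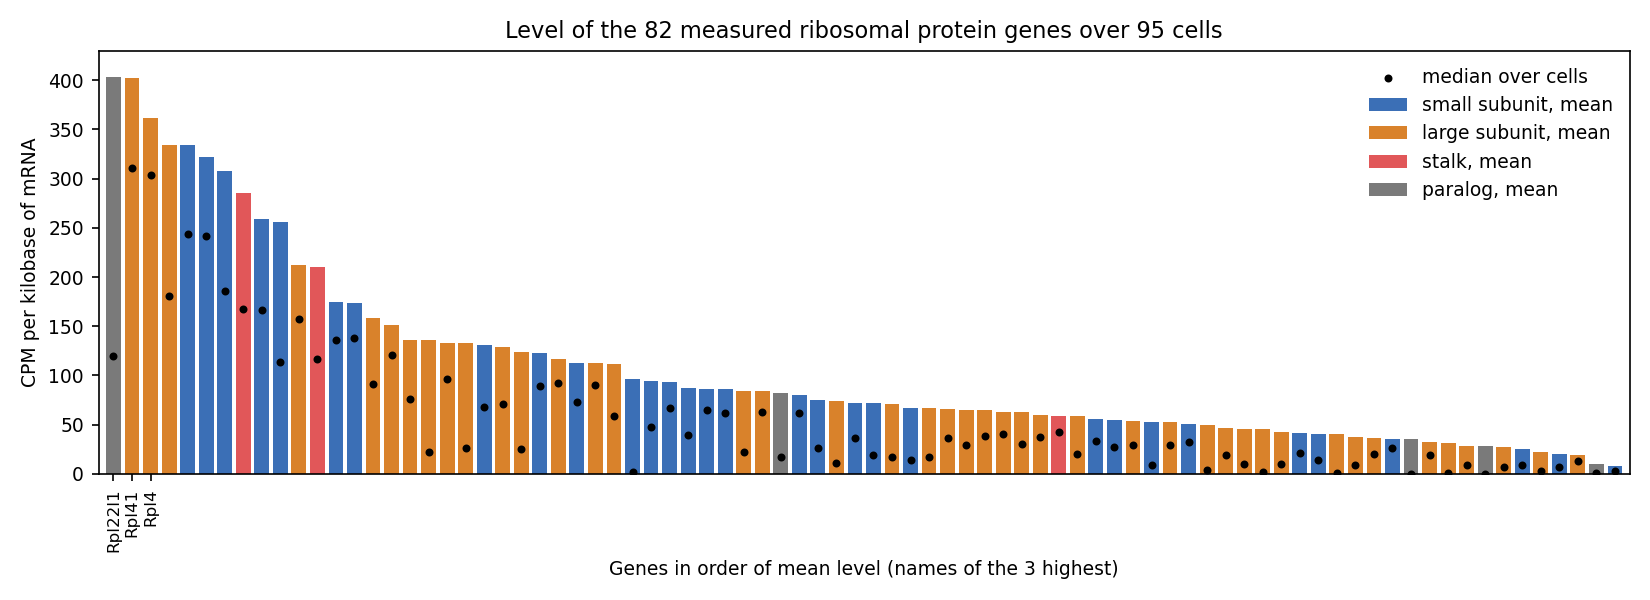
Mean (bars) and median (points) CPM per kilobase of mRNA over 95 cells for each of the 82 measured ribosomal protein genes, in order of the mean and coloured by role, with the names of the 3 highest. Rpl22l1, Rpl41 and Rpl4 have the highest means (403, 402 and 362), and the median of Rpl22l1 (120) lies far below its mean.

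No member was counted in all 95 cells. A cell had counts on a median of 69 of the 85 members (range 17 to 82), 13 members were counted in at least 90% of cells and 5 in under 50%. The members that passed 90% include Rpl41 (93 cells), Rpl13 (90), Rpl21, Rps14 and Rps25 (89 each), Rps3 and Rps18 (88 each), Rpl13a and Rps15 (87 each) and Rpl3, Rpl4 and Rpl32 (86 each). The number of members counted went with the number of genes counted in the cell (Spearman 0.85 over 95 cells, points that share the depth of their library). Rpl4, which lines the exit tunnel of the large subunit, was the member with most counts in 46 of the 95 cells, and 20 other members held that place in the rest. Its share of a cell's ribosomal protein counts had a median of 6.86% and a maximum of 33.5%.

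Together the 85 members took 0.178% to 3.189% of a cell's gene counts, with a median of 0.620%. In the 27 saline EGFP- cells the share was lowest at 0.354%, had a median of 0.590% and was highest at 1.619% (mean 0.669%, SD 0.333). The 5 saline EGFP+ cells had 1.437% (title M222), 1.194% (M230), 1.096% (M247), 1.153% (M252) and 1.676% (M258), with a mean of 1.311% (SD 0.242). All 5 lay above the saline EGFP- median, 1 above the highest saline EGFP- cell, and 3 of the 27 saline EGFP- cells lay above the lowest of the 5. The 36 KA EGFP- cells ranged from 0.178% to 1.344% with a median of 0.514% (mean 0.576%, SD 0.298), and 13 of them lay below every saline EGFP- cell. The 27 KA EGFP+ cells ranged from 0.226% to 3.189% with a median of 0.708% (mean 0.966%, SD 0.674), the widest spread of the 4 groups. Of these, 23 lay above the KA EGFP- median and 6 above the highest KA EGFP- cell.

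**Figure D2:**
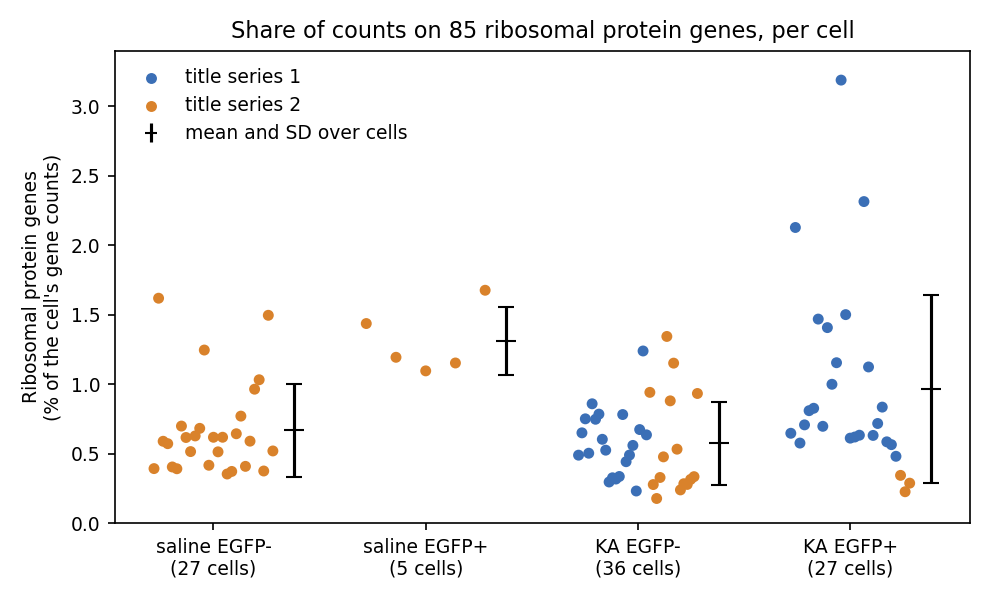
Percent of each cell's gene counts on the 85 ribosomal protein genes (vertical axis) in the 4 groups, with cells as points in title order, coloured by title series, and the mean and SD over cells at the right of each group. The 5 saline EGFP+ cells lie between 1.096% and 1.676%, and 6 KA EGFP+ cells of the first series lie above all KA EGFP- cells.

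The title series carry part of this pattern. KA EGFP+ cells of the first series had a mean of 1.051%, and the 3 of the second series had 0.226%, 0.288% and 0.344%, all below the lowest saline EGFP- cell. Within the first series, the 19 EGFP+ cells titled 1 to 19 averaged 1.160% and the 5 titled 20 to 48 averaged 0.637%, beside 0.583% in the 21 EGFP- cells among which those 5 lie. KA EGFP- cells averaged 0.583% in the first and 0.566% in the second series, with medians of 0.560% and 0.335%. The lower median of the second series goes with fewer members counted per cell (51 against 74 in the median cell).

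The ribosomal protein share was higher where microglia markers were. In saline EGFP- cells it averaged 0.890% in the 12 cells with at least 0.1% of counts on microglia markers and 0.491% in the other 15. The same split gave 0.818% and 0.528% in KA EGFP- cells (6 and 30) and 1.547% and 0.6247% in KA EGFP+ cells (10 and 17). Of the saline EGFP+ cells, the 4 with at least 0.1% averaged 1.351% and the remaining cell, titled M252, had 1.153%. Across cells, Spearman correlations of the 2 shares were 0.79 over 27 saline EGFP-, 0.18 over 36 KA EGFP- and 0.57 over 27 KA EGFP+ cells, points that share library and total; within KA EGFP- cells the value was -0.11 over the 21 of the first series, whose highest microglia share was 0.0420%, and 0.62 over the 15 of the second. Below 0.1% the means were 0.491% in saline EGFP-, 0.528% in KA EGFP- and 0.6247% in KA EGFP+ cells. The 6 KA EGFP+ cells above all KA EGFP- cells (titles 2, 7, 9, 12, 13 and 17) had ribosomal protein shares of 2.13%, 1.47%, 1.41%, 3.19%, 1.501% and 2.31% and microglia shares of 2.54%, 0.517%, 0.536%, 1.89%, 0.580% and 0.423%. The part of microglial RNA in these shares was not tested.

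**Figure D3:**
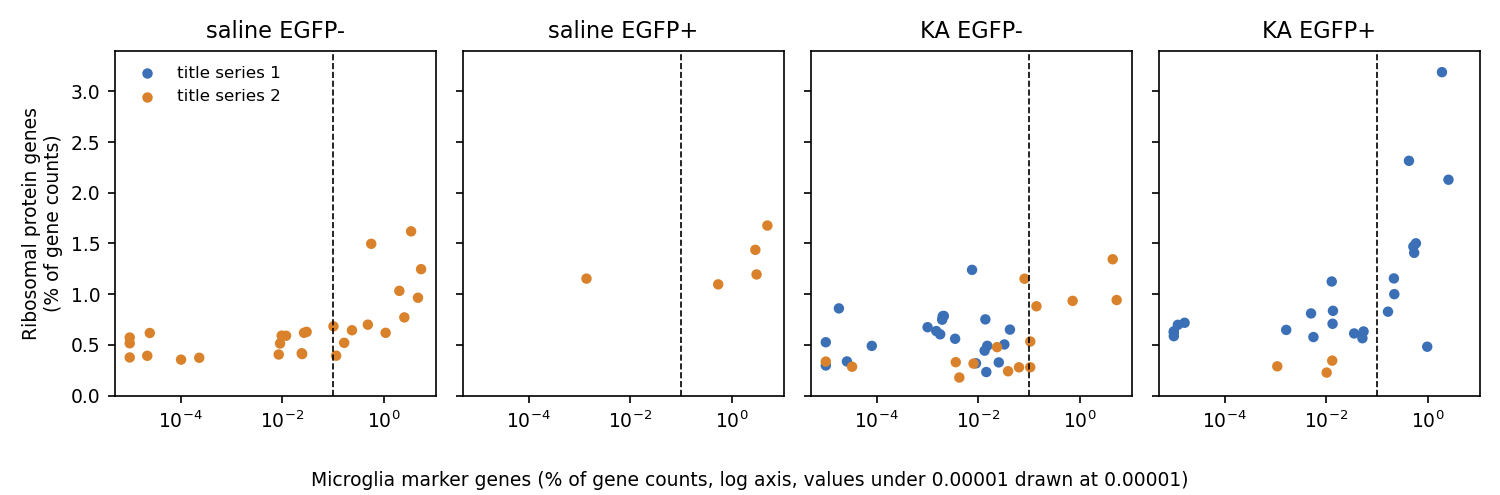
Percent of gene counts on ribosomal protein genes (vertical axis) against percent on 16 microglia marker genes (log axis) for each cell of the 4 groups, coloured by title series, with a dashed line at 0.1%. To the right of the line the mean ribosomal protein share is higher than to the left in each group, for example 1.547% against 0.6247% in KA EGFP+ cells.

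In cells without the EGFP label, KA and saline cells differed in both directions. Of 82 members, 16 were higher after KA by at least 1 in mean log2(CPM+1), beside 30.0% of all measured genes, and 8 were lower by at least 1, beside 10.3%. With the authors' factors in place of CPM the split was 12 and 12. The median member difference was 0.10, and that of all genes 0.45. The members' median changed sign with summed counts per group (-0.047) and over members with a mean of at least 4 (-0.28). Thus 19.5% of the members passed 1 on the higher side, a smaller share than that of all genes, and 9.76% on the lower side, close to that of all genes.

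Among small-subunit genes, Rps4x, whose X-linked gene encodes a core protein of the subunit, had the most negative difference. It ranged from 0 to 8.16 in saline EGFP- cells (median 6.02, counted in 25 of 27) and from 0 to 8.87 in KA EGFP- cells (median 4.11, counted in 20 of 36). Its mean was 5.56 (SD 2.14) and 3.18 (SD 3.08), a difference of -2.37, and -2.54 with KA cells of the second series only. The groups overlap over nearly their whole range, and the lower mean goes with 16 KA EGFP- cells that had no count. Rps27, a zinc finger protein of the small subunit, had a mean of 1.14 (SD 2.21) in saline EGFP- and 2.78 (SD 2.90) in KA EGFP- cells, a difference of 1.65 that was 0.51 in the second series. Rps25 was the only member higher by at least 1 with KA cells of the second series, by 1.32 (1.16 over both series). Rps6 differed by 0.23 over both series and by -2.35 in the second, and Rpsa, a ribosomal protein that is also known as a laminin receptor, by -0.72 and -1.52.

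Among large-subunit genes, Rpl4 ranged from 0.51 to 10.88 in saline EGFP- cells (median 9.13, all 27 with a count) and from 0 to 10.84 in KA EGFP- cells (median 8.12, 30 of 36 with a count). The means were 8.50 (SD 2.61) and 6.96 (SD 3.55), a difference of -1.54. In KA cells of the first series Rpl4 was never under 7.04, whereas 6 of the 15 cells of the second series had no count, and the difference there was -3.40. Rpl8, a core protein of the large subunit, differed by -1.44 (-0.96 in the second series). Rpl10, which completes the large subunit late in its assembly, ranged from 0 to 9.40 in saline EGFP- cells (median 0.43) and from 0 to 9.07 in KA EGFP- cells (median 5.60), and its means of 2.43 (SD 3.05) and 4.37 (SD 3.33) gave the highest difference, 1.95. That difference was 0.08 in the second series, where 7 of 15 KA cells had a count, beside 20 of 21 in the first. Rpl24 and Rpl23a differed by 1.79 and 1.68 over both series and by -0.48 and 0.43 in the second. Rpl24 was counted in 21 of 21 KA EGFP- cells of the first series, in 2 of 15 of the second and in 14 of 27 saline EGFP- cells. For Rpl10 and Rpl24 the KA cells of the first series thus stood apart from both other sets of cells.

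All 3 stalk genes had lower means after KA. Rplp1 differed by -1.10, Rplp2 by -0.75 and Rplp0 by -0.46, and in the second series by -1.59, -1.82 and -2.43. Rplp0 was counted in 20 of 27 saline EGFP- cells, in 19 of 21 KA cells of the first and 7 of 15 of the second series, with means of 5.72 (SD 3.82), 6.66 (SD 2.32) and 3.29 (SD 4.16). The spread between cells was wide in each of the 3 sets.

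Restricting the KA cells to the second series, the only series with saline cells, turned the comparison: 1 member was higher by at least 1 (9.50% of all genes) and 36 were lower (33.8% of all genes), with a median of -0.86 beside -0.50 for all genes. The medians by role were -1.05 for the small subunit, -0.81 for the large subunit, -1.82 for the stalk and -0.87 for the paralogs, against 0.10, 0.20, -0.75 and -0.44 over both series. Relative to the median of all genes, the members' median was -0.36 in that restricted comparison and -0.35 over both series. All 16 microglia markers had lower means after KA over both series, 15 of them by at least 1 (median -2.06). Without the cells that had at least 0.1% of microglia counts, the members' median was 0.55, beside 0.62 for all genes.

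After KA, cells with the EGFP label had higher means of ribosomal protein genes than cells without it. Of 82 members, 47 were higher by at least 1, beside 17.1% of all measured genes, and 1 was lower, beside 4.16%. The difference was positive for 80 of 82 members, beside 64.9% of all genes, with a median of 1.14 beside 0.29 for all genes and a range of -1.06 to 2.63. The medians by role were 0.95 for the small subunit (31 of 31 positive), 1.24 for the large subunit (42 of 43), 1.43 for the stalk (3 of 3) and 0.18 for the paralogs (4 of 5).

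Rpl13 had the highest difference. It ranged from 0 to 8.19 in KA EGFP- cells (median 3.87, 34 of 36 with a count) and from 0 to 9.38 in KA EGFP+ cells (median 7.38, 26 of 27), with means of 4.18 (SD 2.78) and 6.81 (SD 2.37), a difference of 2.63 that was 2.01 within the first series. The median EGFP+ cell lay near the top of the EGFP- range. Rpl9 differed by 2.18 (1.64 in the first series), with medians of 3.65 in EGFP- and 6.92 in EGFP+ cells. Among small-subunit genes, Rps13 and Rps23, the latter a protein of the decoding centre, each differed by 2.13 (1.26 and 1.37 in the first series). Rps12 differed by 2.07, and by 2.59 within the first series, the highest value there; it was counted in 13 of 21 EGFP- and 21 of 24 EGFP+ cells of that series. Rps4x, the gene with the most negative difference after KA in unlabelled cells, had a mean of 5.30 (SD 3.20) in KA EGFP+ and 3.18 (SD 3.08) in KA EGFP- cells; both differences use the same KA EGFP- cells, so they are not independent.

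The stalk genes Rplp0 and Rplp2 differed by 1.54 and 1.43 (0.99 and 1.14 in the first series), and Rplp1 by 0.19 (0.29). Rps6 ranged from 0 to 7.02 in KA EGFP- cells (median 4.38) and from 0 to 8.13 in KA EGFP+ cells (median 5.87), with means of 3.14 (SD 2.87) and 5.02 (SD 2.57). Its difference of 1.88 was 0.47 within the first series. Rpsa differed by 0.81 (0.56). Of the members, Rpl6l was lower by 1.06 (0.62 in the first series), Rpl10a differed by -0.07 (-0.79), Rps21 by 0.08 (0.21) and Rpl18 by 0.09 (-0.47), so Rpl10a and Rpl18 stood below zero in the first series while most members stood above it.

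Within the first series 32 members were higher by at least 1, beside 7.03% of all genes, and 0 were lower, beside 20.9%. The median member difference was 0.75, beside -0.31 for all genes, and 70 of 82 members were positive, beside 36.3% of all genes. By role the medians were 0.69, 0.82, 0.99 and -0.33 for small subunit, large subunit, stalk and paralogs. Microglia markers differ in the same direction there: all 16 had positive differences, 15 of them by at least 1, with a median of 2.29 and the highest value for C1qb (4.59). Without the cells with at least 0.1% of microglia counts, over both series, the members' median was 0.60 beside 0.11 for all genes, with 25 members higher by at least 1 (15.3% of all genes) and 1 lower (9.99%). Among titles 20 to 48, where both classes occur, 5 EGFP+ cells stand against 21, and the median was 0.22 beside -0.29. There 14 members (17.1%) were higher, close to the 16.7% of all genes, and 12 (14.6%) were lower, beside 30.0%. In the second series, with 3 EGFP+ cells, the median was -0.78 beside 0.17, with 11 higher (35% of all genes) and 34 lower (23.7%).

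**Figure D4:**
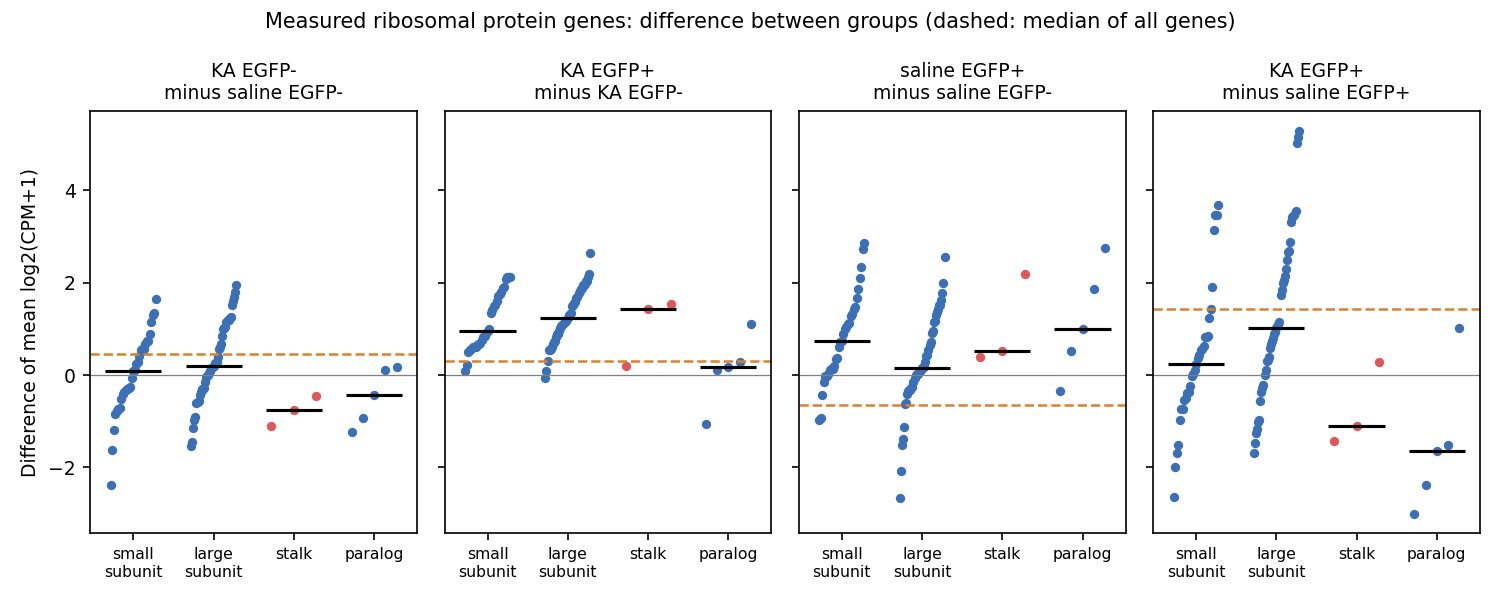
Difference of mean log2(CPM+1) for each of the 82 measured ribosomal protein genes (points, sorted by value within a role) in the 4 comparisons over all titles, with the median of each role (black bars) and of all measured genes (dashed line). The members stand above the dashed line as a group in KA EGFP+ minus KA EGFP- cells (median 1.14 against 0.29) and below it in KA EGFP+ minus saline EGFP+ cells (0.55 against 1.43).

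The comparison of labelled with unlabelled cells after saline rests on 5 EGFP+ cells. Of 82 members, 28 were higher in them by at least 1, beside 12% of all genes, and 5 were lower, beside 39.6%, with a median of 0.42 beside -0.66 for all genes (-0.55 with the authors' factors). The cell titled M252 differs from the other 4. It had counts on 27 members, whereas the others had counts on 67 to 82. Rpl22l1 alone took 82.6% of its ribosomal protein counts, at 13.22 on the log2(CPM+1) scale, and the small-subunit genes took 4.21%. In that cell 41 members counted in all other 4 cells had no count, and the ribosomal RNA gene took 13.4% of all counts. Its microglia share was 0.00138%, and it is the only saline EGFP+ cell below 0.1%. Without it 55 members were higher by at least 1, beside 18.9% of all genes, and 5 were lower, beside 36.0%, with a median of 1.60 beside -0.49. Over the 3 EGFP+ and 22 EGFP- saline cells that are also labelled as passed, the median member difference was -0.12, beside -1.06 for all genes.

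**Figure D5:**
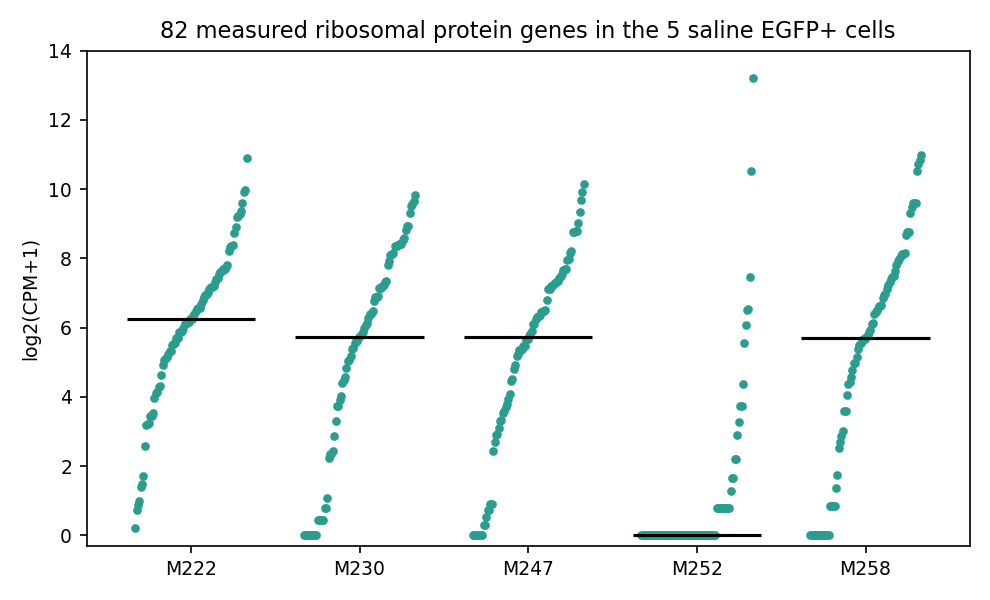
log2(CPM+1) of the 82 measured ribosomal protein genes (points, sorted within a cell) in each of the 5 saline EGFP+ cells, with the median gene of each cell as a black bar. The cell titled M252 has its median at 0 and a single gene, Rpl22l1, at 13.22.

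Rps9, a small-subunit protein at the mRNA entry side, had the highest difference. Its values in the 5 saline EGFP+ cells, in the order of titles M222, M230, M247, M252 and M258, were 9.37, 9.82, 8.77, 6.52 and 10.52, beside 0 to 10.18 with a median of 7.49 in the 27 saline EGFP- cells. The means were 9.00 (SD 1.53) and 6.14 (SD 3.51), a difference of 2.86 and of 3.48 without title M252. All 5 values lie within or just above the range of the unlabelled cells, and the cell titled M252 is the lowest. Rps28 had 6.24, 4.58, 5.64, 6.08 and 6.86 in these 5 cells, and 0 to 6.27 with a median of 4.00 in saline EGFP- cells, a difference of 2.73 (2.68 without title M252). Rps6 had 4.93, 7.32, 5.92, 0 and 8.12, beside 0 to 8.28 with a median of 1.14, a difference of 2.35 (3.66).

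Of the large-subunit genes, Rpl22, an RNA-binding protein, had 7.40, 7.16, 6.50, 0 and 7.33 in the 5 cells and 0 to 8.11 with a median of 3.91 in saline EGFP- cells, a difference of 2.56 (3.98 without title M252). The stalk gene Rplp0 had 9.99, 9.66, 7.48, 1.67 and 10.71, beside 0 to 10.97 with a median of 7.28, a difference of 2.18 (3.74). In both genes 4 cells lay high and the cell titled M252 lay low. Rplp1 and Rplp2 differed by 0.52 and 0.39 (2.24 and 1.67 without title M252).

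Some other large-subunit genes had lower means in these cells than in saline EGFP- cells, and of those named here only Rpl5 was near zero in all 5. Rpl5, which carries the 5S ribosomal RNA and binds Mdm2, had 0.73, 0.45, 0.91, 0.79 and 0 in the 5 cells and 0 to 8.75 with a median of 3.24 in saline EGFP- cells. Its difference of -2.66 (-2.71 without title M252) is the lowest among the members and does not rest on a single cell. Rpl9 had 2.57, 0, 0.53, 0 and 0, a difference of -2.09 (-1.93), and Rpl10 had 4.29, 0, 0.29, 0 and 0, a difference of -1.51 (-1.28). The saline EGFP- medians of the latter 2 were also low, at 0.43 each, while their highest cells reached 10.61 and 9.40. Rpl31 had 5.56, 0, 0.73, 0 and 0.83 in the 5 cells, a difference of -1.38 (-1.02).

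All 16 microglia markers were higher in the saline EGFP+ cells by at least 1 (median 4.45, and 6.34 without title M252). Leaving out all cells with at least 0.1% of microglia counts leaves the cell titled M252 alone, with a median member difference of -2.75, so within cells low in these markers the comparison holds 1 cell. The small-subunit share of ribosomal protein counts had a median of 41.6% in saline EGFP+ and 35.6% in saline EGFP- cells, and the medians after KA were 38.4% (EGFP-) and 37.2% (EGFP+).

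Between labelled cells after KA and after saline, 30 members were higher after KA by at least 1, beside 61.6% of all genes, and 15 were lower, beside 8.82%. The median member difference was 0.55 and that of all genes 1.43 (1.18 with the authors' factors). The share of counts on the members had the opposite order, 0.966% after KA and 1.311% after saline, a difference of -0.345 percentage points, and 19 of 27 KA EGFP+ cells lay below every saline EGFP+ cell while 3 lay above them all. Without title M252, 22 members were higher, beside 56.0% of all genes, and 32 were lower, beside 13.2%, with a median of -0.51 beside 1.25. The direction of the median therefore rests on that cell, whereas the position below the median of all genes does not. All 16 microglia markers were lower after KA by at least 1 (median -4.76, and -6.53 without title M252). Their part in this comparison was not tested.

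Rpl9, Rpl10 and Rpl5 had the highest differences, 5.29, 5.15 and 5.03 (5.14, 4.92 and 5.08 without title M252), with medians of 6.92, 7.78 and 6.65 in KA EGFP+ cells and of 0, 0 and 0.73 in saline EGFP+ cells. The groups overlap for each of the 3 genes because KA EGFP+ cells without a count exist: 3 of 27 for Rpl9, 4 for Rpl10 and 2 for Rpl5. Rps27a, which encodes a fusion of ubiquitin with a ribosomal protein, differed by 3.68 (3.46) and was counted in 2 of 5 saline EGFP+ and 21 of 27 KA EGFP+ cells. At the lower end were Rpl6l with -3.00 (-3.73 without title M252), Rps9 with -2.64 (-3.26), Rpl7l1 with -2.37 (-3.66) and Rps20 with -1.99 (-3.54). Rps9 in KA EGFP+ cells ranged from 0 to 9.77 with a median of 7.21. Of the 4 saline EGFP+ cells at 8.77 or higher, M222 (9.37) and M247 (8.77) lay in the upper part of that range. M230 (9.82) and M258 (10.52) lay above it. Rplp0, Rplp1 and Rplp2 differed by -1.10, -1.43 and 0.28 (-2.66, -3.16 and -0.99 without title M252), Rpsa by -0.50 (-1.89) and Rps6 by -0.24 (-1.56), so the sign for Rplp2 rests on that cell. With KA cells of the second series only, 3 cells against 5, the median was -2.27 beside 0.17. The differences of Rpl10 and Rps27a were negative in that setting. This comparison shares its saline EGFP+ cells with that of the labels after saline and its KA EGFP+ cells with that after KA, so Rpl5, Rpl9 and Rpl10 appear at opposite ends for the same 5 cells.

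The 5 measured paralogs were counted in other numbers of cells than their partners. Rpl7l1, which takes part in ribosome assembly, was counted in 12 of 27 saline EGFP-, 3 of 5 saline EGFP+, 19 of 36 KA EGFP- and 12 of 27 KA EGFP+ cells, whereas Rpl7 was counted in 24, 4, 30 and 24. In the 5 saline EGFP+ cells Rpl7l1 had 6.80, 9.58, 0, 0 and 9.30, a difference of 2.76 from the unlabelled cells, in whose median cell it had no count. Rps27l, a paralog of Rps27 that is induced by p53, was counted in 13, 3, 21 and 16 cells and Rps27 in 8, 4, 23 and 22. Rps27l differed by 0.18 in KA EGFP+ minus KA EGFP- cells (-0.51 in the first series) where Rps27 differed by 1.79 (1.36). Rpl22l1 differed by 0.10 (-0.27) in that comparison and Rpl22 by 1.30 (2.05). Rpl22l1 had 7.19, 0, 7.11, 13.22 and 5.92 in the 5 saline EGFP+ cells, so the partner Rpl22 was without a count in the cell where Rpl22l1 was highest, and Rpl22l1 was without a count in the cell titled M230, where Rpl22 had 7.16. Rps4l was counted in 7, 1, 9 and 10 cells. Rpl6l was counted in all 5 saline EGFP+ cells and in 18, 24 and 21 of the other groups, with means after saline of 2.69 (SD 2.13, EGFP-) and 3.69 (SD 2.16, EGFP+) and after KA of 1.75 (SD 1.99, EGFP-) and 0.69 (SD 1.04, EGFP+). Its coding partner Rpl6 had the opposite order between the KA groups (4.45 and 6.23).

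The -ps pseudogene symbols, left out of the list, differed by title, within the first series as well as between series. Their median share of counts was 0.0113% in saline EGFP- and 0.0295% in saline EGFP+ cells. After KA, the EGFP- median was 0.000437% in the first and 0.00893% in the second series, and the EGFP+ median 0.000306% and 0.00616%. In the first series the share was at most 0.00124% in the 31 kept cells titled 1 to 32, whereas 11 of the 14 titled 33 to 48, 9 of them EGFP-, had 0.00410% to 0.0165%; this split was chosen after the values were seen. The part of this pattern in the differences of members with many copies was not tested. Over the 41 measured members with no more copies than the median member, the medians of the 4 comparisons were 0.01 (KA EGFP- minus saline EGFP-), 0.89 (KA EGFP+ minus KA EGFP-), 0.66 (saline EGFP+ minus saline EGFP-) and 0.11 (KA EGFP+ minus saline EGFP+).

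Over all pairs of measured members the median Spearman correlation was 0.22 in saline EGFP-, 0.24 in KA EGFP- and 0.40 in KA EGFP+ cells, and over all pairs of measured genes 0.10, 0.11 and 0.13; all such points share the depth of their library. The share of counts on the members went with that of 12 elongation factors (Spearman 0.58 over 27 saline EGFP-, 0.49 over 36 KA EGFP- and 0.78 over 27 KA EGFP+ cells) and with that of 48 ribosome biogenesis genes at -0.20, 0.27 and -0.19. It exceeded the share of mitochondrial ribosomal protein genes in most cells of 3 groups: the mitochondrial share was the higher in 5 of 27 saline EGFP-, 0 of 5 saline EGFP+ and 6 of 27 KA EGFP+ cells, but in 19 of 36 KA EGFP- cells. The median ratio of the shares was 1.30, 2.54, 1.47 and 0.956 in that order.

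Other genes of translation were compared from fixed lists. In KA EGFP+ minus KA EGFP- cells all 6 ribosome-associated genes outside the name rule had positive differences (5 by at least 1, 0 lower by 1), with a median of 1.70, and of 1.06 within the first series. Fau, which encodes a ribosomal protein fused to a ubiquitin-like protein, differed by 2.21 (1.06), and Rack1, a scaffold on the small subunit, by 1.67 (1.06). Among 11 measured elongation factors 3 were higher by at least 1 and 0 lower, with a median of 0.49 (-0.03 in the first series) and the highest value for Eef1a1, which brings aminoacyl-tRNA to the ribosome (1.32, and 1.24 in the first series). Of 38 initiation factors 11 were higher and 2 lower (median 0.52), of 45 biogenesis genes 9 and 3 (median 0.31), of 18 genes of mTORC1 and oligopyrimidine control 3 and 1 (median 0.29) and of 76 mitochondrial ribosomal protein genes 19 and 2 (median 0.38), beside a median of 0.29 for all genes, of which 17.1% were higher and 4.16% lower. Within the first series the medians of these 4 lists were -0.09, -0.48, -0.31 and -0.27, beside -0.31 for all genes, with 1 higher and 9 lower, 3 and 11, 0 and 4, and 6 and 18 (7.03% and 20.9% of all genes). Of 12 mitochondrially encoded mRNAs 6 were higher and 0 lower (median 1.00, and 0.90 in the first series).

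In KA EGFP- minus saline EGFP- cells the medians of these lists were 0.00 for the ribosome-associated genes (0 higher, 1 lower), -0.84 for elongation factors (1 and 4), 0.24 for initiation factors (8 and 7), 0.88 for mTORC1 and oligopyrimidine control (8 and 2), 0.45 for biogenesis (10 and 2), 0.69 for mitochondrial ribosomal proteins (28 and 3) and 0.70 for mitochondrially encoded mRNAs (4 and 0), beside 0.45 for all genes (30.0% higher, 10.3% lower). The lowest gene of the elongation list was the termination factor Gspt1 (-1.31). Without the microglia-rich cells the elongation list had a median of 0.04 (3 higher, 1 lower) and Gspt1 differed by -0.22. With KA cells of the second series only, the medians of these lists were, in the same order, -1.28, -1.03, -1.10, -0.20, -0.91, -0.41 and 0.08. The median of all genes was -0.50 there. Over both series the median of the mitochondrial ribosomal proteins was above that of the members (0.69 against 0.10). In saline EGFP+ minus saline EGFP- cells the ribosome-associated genes had a median of 1.08 (4 higher, 0 lower), elongation factors 0.39 (4 and 3), initiation factors -0.96 (4 and 19), biogenesis -0.74 (3 and 18) and mitochondrial ribosomal proteins -0.54 (12 and 28). All genes had a median of -0.66, with 12% higher and 39.6% lower, so the biogenesis and mitochondrial lists lay near all genes. Without title M252 the medians of the 5 lists were 1.40, 1.13, -0.42, -0.40 and -0.33, beside -0.49.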

How the data were processed

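Cytosol of single cells was sequenced after patch-pipette sampling and Nextera XT preparation, per the labels' protocols. Trimmomatic, STAR, featureCounts and kallisto were used with build GRCm38, per the submitters' processing notes, which give no versions or roles. The authors deposited 2 tables of whole-number counts by gene symbol, of 115 cells and of the 95 that passed their quality control, and a normalized signal, which is each count multiplied by a constant of the cell (0.118 to 147.5) of unstated origin. Columns were matched to samples by title. The 92 spike-in rows (6 counts) were left out. Counts were scaled to CPM per cell over 22870 genes, and means of log2(CPM+1), pseudocount 1, were compared. A gene past 1 in size was counted as higher or lower. The reads carry no molecular barcodes, so the depth does not bound the error from captured molecules, and the spread between cells, which may share a mouse, includes it. Members and lists were chosen with earlier results of these data known. Named are the members with the 10 highest and 5 lowest levels, the 4 most positive and 4 most negative per comparison (for KA EGFP- minus saline EGFP- and KA EGFP+ minus KA EGFP- only where the difference less the members' median kept its sign in title series 2 and 1, respectively), stalk genes, Rpsa, Rps6, Rps27a, Rps4x, paralogs with their partners, and the extremes of other lists. Rps12, Rps25 and genes of the detection list were named after their values were seen. A few genes that this rule names are not reported here. Coordinates, exons and lengths came from GENCODE release M21 (GRCm38), copies from blastn 2.17.0, and start windows from RefSeq. Python 3.11.15, numpy 2.4.6, pandas 2.3.3 and scipy 1.17.1 were used. The code for differences was tested on simulated data with known changes in well-counted genes. The simulated cells had fewer zeros and less spread than the real ones, so this checks the calculation and not the error of the differences. Alternatives were another pseudocount, filter, scaling, thinning to 1000000 counts, summed counts, and other sets of cells or members. The sets of titles 20 to 48 and of members with few copies were added after seeing the data.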

Additional observations from a re-analysis of the deposited data

Results flagged for a closer look

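Among the 5 saline EGFP+ cells, a single cell stood far from the other 4 in 26 of 49 measures checked. Chance alone would flag 1 in 20 groups of normally distributed values. That rate does not hold here, because many values are 0 and some members were picked for extreme differences in these same cells. The 26 measures include 22 of 44 members, and in 19 of the 26 the cell is the one titled M252. That cell was lowest in the number of members counted (27), in the small-subunit share of ribosomal protein counts (4.21%) and in the median member (0), and highest in the share of its top member, Rpl22l1 (82.6%). It was also lowest for Rpl32 (3.28 in log2(CPM+1)), Rpl4 (2.21) and Rps14 (0.79), and had no count, a value of 0, for members that include Rpl18, Rpl22, Rpl39, Rpl41, Rplp1, Rplp2, Rps16, Rps20, Rps21, Rps4x and Rpsa. The cell titled M222 was far above the others for Rpl10 (4.29), Rpl23a (3.44), Rpl31 (5.56), Rpl9 (2.57), Rps27a (4.12) and Rps4l (6.48), and the cell titled M247 for Rps27 (3.09). The same cells give all these values, so they are not separate observations.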

How the results depend on the processing

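Under the alternatives, 101 values of the shares and median differences kept their sign and stayed within 1 SD over single cells. A further 2 moved beyond that SD and 11 changed sign. For the median differences that SD is wide, so few values of the same sign could move beyond it. KA EGFP- minus saline EGFP-: the median was -0.047 with summed counts, -0.28 with members of a mean of at least 4 and -0.86 in title series 2, and the share difference was 0.0455 points with all cells before QC and 0.0366 without microglia-rich cells. KA EGFP+ minus KA EGFP-, title series 2: share -0.280 and median -0.78. Saline EGFP+ minus saline EGFP-: median -0.12 over cells labelled passed and -2.75 without microglia-rich cells. KA EGFP+ minus saline EGFP+: median -2.27 and share -1.03 in title series 2, and median 4.14 (2.52 for all genes) without microglia-rich cells. Without microglia-rich cells the saline EGFP+ group is only the cell titled M252, so the values of -2.75 and 4.14 rest on 1 saline EGFP+ cell. Leaving out each saline EGFP+ cell in turn, saline EGFP+ minus saline EGFP- spanned 0.551 to 0.696 (share) and 0.09 to 1.60 (median), and KA EGFP+ minus saline EGFP+ -0.399 to -0.254 and -0.51 to 0.87, the last sign change coming without replicate 6, the cell titled M252. Counts of members past 1 stayed within 1.5 times in 84 alternatives and not in 50, and ranged from 1 to 26 higher and 3 to 36 lower, 11 to 51 and 0 to 34, 7 to 55 and 1 to 67, and 3 to 73 and 5 to 58 in the 4 comparisons. Over the 4 highest and 4 lowest members of each comparison, relative to the members' median, a difference of at least 1 in size changed sign in 12 cases. In title series 2 these were Rpl24 (-0.48) in KA EGFP- minus saline EGFP- cells and Rpl13 (-0.21), Rpl9 (-1.33) and Rps23 (-0.74) in KA EGFP+ minus KA EGFP- cells. Rpl10 (-0.70) and Rps27a (-0.88) changed sign there in KA EGFP+ minus saline EGFP+ cells. In titles 20 to 48 the cases were Rpl9 (-0.26) and Rpl6l (0.22). Without microglia-rich cells they were Rpl7l1 (-2.14) and Rpl22 (-2.54) after saline and Rpl7l1 (1.46) and Rps20 (2.97) between labelled cells. The cause was not tested. No paired analysis was possible because the replicate numbers are only names in accession order and no test was made.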

Other observations

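The 20 cells left out of the quality-passed table had 17 to 1287711 counts (median 474183). Their ribosomal protein share ranged from 0% to 7.91% with a median of 0.560%. The left-out saline EGFP+ cells were those titled M220, with 0.396% and 8 members counted, and M221, with 1.26% and 61 members counted.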
